A study of Homo sapiens with 12 samples.

Results

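The genes that encode the proteins of the cytosolic ribosome were followed in U937, an established human cell line used as a model of acute myeloid leukaemia (AML), without treatment and after decitabine (DAC), the vitamin A derivative all-trans retinoic acid (ATRA), or both. Members were the rows whose gene symbol has the form of a cytosolic RPL or RPS name, apart from RPL10L, together with RPLP0, RPLP1, RPLP2 and RPSA, and each gene was represented by the transcript whose mean over all 12 libraries was highest. This gave 85 genes, 51 of the large and 34 of the small subunit, among 44786 gene symbols, and 888 transcript rows among 197782. The 4 groups had 3 libraries each. The labels give 96 h for untreated cells and 72 h for all treated cells, so culture time and treatment cannot be told apart in the comparisons with untreated cells. The study's methods name 72 h as the time of harvest, with no other time for untreated cells, and a serum share that differs from the labels, whose values are used here. DAC, an inhibitor of DNA methyltransferases, was given at 200 nM, renewed daily over 3 days, and ATRA, a ligand of retinoic acid receptors, at 1 µM. The labels give 3 days of treatment for ATRA as for DAC. According to the methods, however, ATRA was added only with the last daily dose of DAC. Exposure to ATRA may therefore have been shorter, and agent and exposure time cannot be told apart where ATRA and DAC are set side by side. The methods also state that ATRA was dissolved in DMSO, while the reference here is untreated cells. All groups shared a medium with 20% serum and 5 ng/ml GM-CSF. The labels do not say that the replicates came from separate cultures, so p-values may measure only technical spread. Everything rests on 1 cell line.

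Ribosomal proteins are made in close to equal numbers, because each is built once into almost every ribosome, and their synthesis takes a large part of the capacity of a growing cell. Most of their mRNAs start with a short run of pyrimidines, the 5′ terminal oligopyrimidine (TOP) motif, through which growth signals acting on the mTOR pathway adjust translation. Several of the proteins have a further role outside the ribosome, as RPL5 and RPL11, which join the 5S rRNA and can bind the p53 regulator MDM2.

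The values are reads per transcript after division by a size factor (normalized reads), and for most members they do not measure the mature mRNA. Reads shared by several transcripts of a gene mostly went uncounted: of the 370 member rows without a base of their own in GENCODE release 44, 2.43% had at least 10 reads over the 12 libraries together, against 62.7% of the 416 rows with such a base. In 51 of the 85 chosen rows, 32 of the large and 19 of the small subunit, the largest part of the row's own bases lies inside introns of the main mRNA (the MANE Select transcript). In 18 it lies in its exons and in 9, RPL14 with only 11 bases among them, outside its exons and introns. The other 7 could not be placed. The annotation used for counting is not given in the sources used here, so these placements are those of GENCODE release 44. By biotype, 31 rows were retained-intron and 44 protein-coding transcripts. A level could therefore be set against that of another gene only per kilobase of counted bases, and comparisons below are within a gene.

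Junctions of 6 genes show where counted transcripts part from the main mRNA. In each, the transcript that represents the gene runs through an intron that the main mRNA lacks. This intron need not hold most of the counted bases: RPL5 intron 2 has 86 bases, while 713 of the row's own bases lie in introns. The last 14 exon bases are in lower case and the first 16 bases of that intron in capitals (hg38, read 5′ to 3′). The examples are RPL5 intron 2 (chr1:92833445-92833474, plus strand), RPL11 intron 4 (chr1:23694778-23694807, plus strand), RPLP1 intron 2 (chr15:69453708-69453737, plus strand), RPL12 intron 1 (chr9:127451265-127451294, minus strand), RPS24 intron 5 (chr10:78040212-78040241, plus strand) and RPS6 intron 1 (chr9:19380174-19380203, minus strand).
RPL5: tagaagacgacgagGTACTGTCACCTTTTT
RPL11: tggacttctatgtgGTATGAATATTTAATC
RPLP1: gcttgtttgcaaagGTAAGGTGATGGTGGC
RPL12: cgagatcaaagtcgGTGCGTGCTCTGGTTG
RPS24: agattggatcacagGTATAATTCAAGCTTT
RPS6: gcttcaagatgaagGTAGGTGATGGTGGCG
All 26 such junctions that were read begin with GT, the usual first bases of an intron. The libraries were made from total RNA depleted of rRNA, which keeps unspliced transcripts.

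The TOP run at the start of the genes is shown because it is the sequence feature the members share and the rule did not use. RefSeq promoters (GRCh38.p14) matched 68 of the 85 genes. An unbroken run of at least 8 C or T on the transcribed strand, touching the stretch from 5 bases before to 10 bases after the annotated start, was present in 50 of these 68 (73.5%), in 29 of 41 large and 21 of 27 small subunit genes, against 12.6% of all 27305 promoters. The longest run had a median of 11 bases in the members and 4 in all promoters. The windows below hold 10 bases before and 20 from the annotated start, with the longest run in capitals, for 5 genes with the run and 2 without it (RPS24, chr10:78033853-78033882, plus; RPS6, chr9:19380217-19380246, minus; RPL36A, chrX:101391001-101391030, plus; RPLP1, chr15:69452808-69452837, plus; RPL35A, chr3:197950180-197950209, plus; RPL11, chr1:23691769-23691798, plus; RPS29, chr14:49598691-49598720, minus).
RPS24: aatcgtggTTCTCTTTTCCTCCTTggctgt
RPS6: gaagttggCCCTCTTTTCCgtggcgcctcg
RPL36A: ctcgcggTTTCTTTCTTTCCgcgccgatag
RPLP1: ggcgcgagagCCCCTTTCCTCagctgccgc
RPL35A: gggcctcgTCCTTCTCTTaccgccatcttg
RPL11: cctggcccataaggCCCTCggccggaagct
RPS29: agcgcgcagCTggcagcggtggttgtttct
A single annotated start was used for each gene, and it need not be that of the counted transcript. A window without the run therefore does not show that the mRNA lacks it. The 7 genes were taken from those with the lowest called changes described below, so their changes say nothing about the run.

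Libraries held 8042435 to 10683593 reads, 36.3 to 42.5% of them mitochondrial. Of 10 myelomonocytic markers 9 were measured well enough to be tested, PTPRC being listed at 0. Their summed level ran from 60939 to 68227 normalized reads in untreated libraries, from 38376 to 55739 with DAC, from 40764 to 58588 with ATRA and from 33748 to 36319 with both, with MPO as the largest part in untreated libraries. With DAC + ATRA 1 of the 9, MPO, fell (-1.80 ± 0.15) and 4 rose, CEBPA, ITGB2, LYZ and CSF1R. Of 8 markers of other blood cells and 8 of non-blood tissues 3 each were tested, and with DAC + ATRA 2 and 3 of these rose. The blood list summed to between 155 and 159 untreated and between 1421 and 1497 with DAC + ATRA, and the non-blood list to between 148 and 173 and between 2971 and 3345, most of it PECAM1, which blood monocytes and platelets also express and which U937 held at 129 to 151 normalized reads without treatment. The rise of the blood list likewise lay mostly in CD79A, at 124 to 141 untreated and 1299 to 1385 with DAC + ATRA. HBB, which defines red cells, was listed at 0 throughout. So were RPL13A and FAU, which every cell uses, so a 0 here does not show absence. The part of these changes in the results below was not tested. In a bulk sample fewer cells of a type and less RNA per cell cannot be told apart.

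The share of reads that fell on the 85 genes was lower in every treated library than in every untreated one. It was 0.220% ± 0.00437 (SD, n = 3) in untreated cells, 0.184% ± 0.00316 with ATRA, 0.143% ± 0.00609 with DAC and 0.126% ± 0.00347 with DAC + ATRA, and none of the 4 groups overlapped. With mitochondrial reads left out of the total the shares were 0.378%, 0.308%, 0.234% and 0.202% in the same order. Over all 888 rows of these genes, the chosen rows included, the order was the same, from 0.266% in untreated cells to 0.155% with DAC + ATRA. Of the reads of these rows, 21.1% lay on retained-intron transcripts in untreated cells and 20.1% with DAC + ATRA, while over all genes the retained-intron share of non-mitochondrial reads was 4.61% ± 0.225 and 3.82% ± 0.254. With DAC it was 3.63% ± 0.086, and with ATRA 3.76, 4.02 and 5.31%, library 9 being the highest. The part of that shift in the members' changes was not tested.

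**Figure D1:**
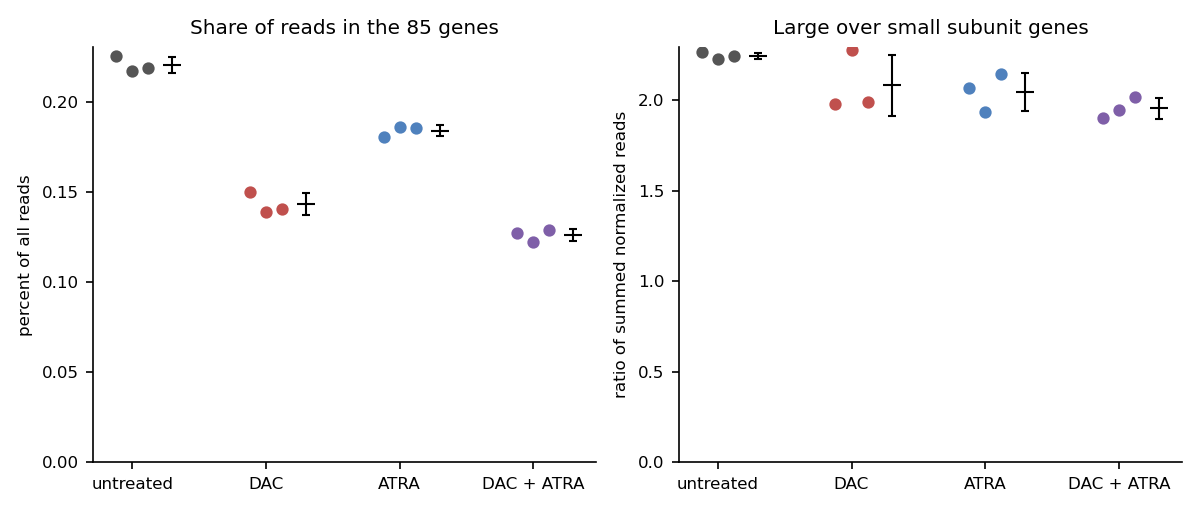
Left, percent of all reads on the 85 ribosomal protein genes in each library; right, summed normalized reads of the large over the small subunit genes (points, libraries; bars, mean and SD of 3). The share runs from 0.217 to 0.225% in untreated libraries and from 0.122 to 0.129% with DAC + ATRA, and the ratio stays between 1.90 and 2.28.

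A gene was tested if at least 3 libraries reached 10 normalized reads, and it was called at an adjusted p under 0.01 in a limma fit over all 19373 rows that passed. Of the 85 members 74 passed, 46 large and 28 small, and 66 of these reached 10 in every library. RPL13A, RPL39L, RPS18, RPS4Y1 and RPS4Y2 were listed at 0 in every library, and the other 6 that did not pass, among them RPS9, RPL26L1, RPL3L, RPS27 and RPL22L1, had too few reads. Several of these genes are used by every cell, so a 0 here says only that no read was assigned to any row of that gene.

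With DAC + ATRA more members fell than with either agent alone. Relative to untreated cells 35 of 74 fell and 2 rose, where 16.1% of all rows fell and 25.5% rose. The median log2 fold change was -0.59 over the members and 0.05 over all rows. In 52 members all 3 libraries lay below all 3 untreated ones, which held for 27.7% of all rows. RPL5, the 5S rRNA-binding protein, RPS24, needed for processing of the 18S rRNA precursor, RPL12 at the base of the stalk, and RPLP1, an acidic stalk protein that recruits elongation factors, were among the 8 with the largest falls, as were RPL8, RPL17 and RPL35A.

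RPL5 had 175, 211 and 216 normalized reads in the untreated libraries, 106, 81.8 and 91.6 with DAC, 126, 133 and 163 with ATRA, and 70.5, 64.2 and 85.3 with both agents. All treated libraries were below all untreated ones. Against untreated cells the combination gave a log2 fold change of -1.44 ± 0.16 (SE, limma adjusted p = 3.39e-08). RPS24 had 245, 268 and 313 normalized reads untreated, 139, 114 and 103 with DAC, 163, 168 and 216 with ATRA, and 117, 117 and 101 with both. Its level was lowest in the 6 libraries that received DAC, and the change was -1.29 ± 0.15 (limma adjusted p = 9.75e-08). RPL12 stood at 176, 153 and 167 normalized reads untreated, 118, 106 and 102 with DAC, 106, 126 and 109 with ATRA and 71.4, 74.7 and 63.0 with both. The combination was below each agent alone in every library, at -1.24 ± 0.15 against untreated cells (limma adjusted p = 1.11e-07).

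RPLP1 had 356, 298 and 308 normalized reads untreated and 134, 144 and 162 with DAC + ATRA (-1.12 ± 0.14, limma adjusted p = 1.86e-07). RPL35A, a large subunit protein, had 258, 253 and 241 and then 127, 116 and 110 (-1.09 ± 0.13, limma adjusted p = 7.72e-08). Untreated and DAC + ATRA libraries did not overlap in these genes, and on their protein-coding rows RPLP1 at -0.63 and RPL35A at -0.83 were not called. RPL8 and RPL17 rested on few reads. RPL8 went from 26.7, 19.1 and 17.5 normalized reads to 6.33, 10.5 and 1.24, and its -1.92 ± 0.44 became -1.24 without DAC + ATRA library 12 and -1.08 with the rows of the gene summed, both called. RPL17, which lines the peptide exit tunnel, had 19.3, 31.9 and 33.3 untreated and 8.14, 8.42 and 13.6 with both agents (-1.39 ± 0.34, or -0.90 with its rows summed), and on its protein-coding row it stood at -0.04 and was not called.

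**Figure D2:**
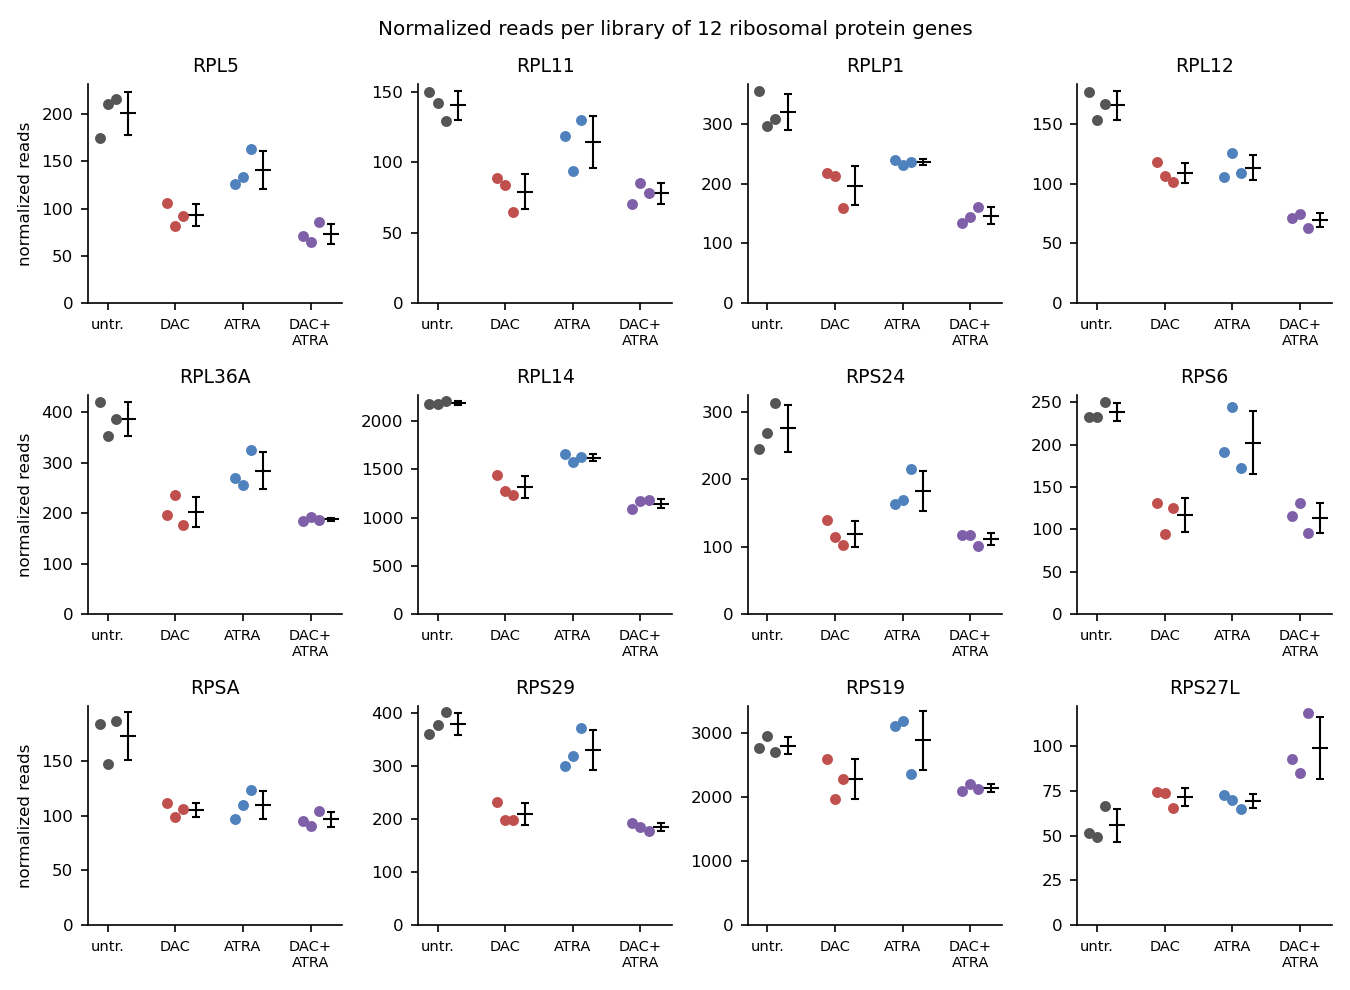
Normalized reads (linear axes from 0) of 12 ribosomal protein genes in each library, by group (points, libraries; bars, mean and SD of 3). RPL5 sits between 175 and 216 in untreated libraries and between 64.2 and 85.3 with DAC + ATRA, RPS19 overlaps between untreated and ATRA libraries, and RPS27L is higher with DAC + ATRA than untreated.

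Among the members that rose with DAC + ATRA was RPS27L. RPS27L, a paralog of RPS27 known as a p53 target, had 51.5, 49.2 and 66.5 normalized reads untreated and 93.1, 85.3 and 119 with DAC + ATRA (0.82 ± 0.18, limma adjusted p = 0.000375). Scaled by library size without mitochondrial transcripts it stood at 0.57 and was not called. Its counted bases lie in exons of the main mRNA. With DAC alone it had 74.6, 74.0 and 65.7, overlapping the untreated range.

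With DAC alone 20 members fell and 1 rose, where 11.3% of all rows fell and 22.2% rose. The median was -0.40 over the members and 0.05 over all rows, and 40 members had all DAC libraries below all untreated ones, against 23.6% of all rows. After RPS24 (-1.21 ± 0.15, limma adjusted p = 3.84e-07) and RPL5 (-1.10 ± 0.16, limma adjusted p = 3.60e-06) came RPS6, the S6 kinase substrate. RPS6 had 232, 232 and 250 normalized reads untreated and 131, 94.5 and 125 with DAC (-1.03 ± 0.16). With ATRA it had 191, 244 and 172 and overlapped untreated cells.

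RPL36A had 421, 353 and 387 normalized reads untreated and 196, 236 and 176 with DAC (-0.94 ± 0.13). RPS29, a zinc-binding small subunit protein, had 359, 377 and 401 and then 232, 198 and 197 (-0.86 ± 0.13), and RPL11, partner of RPL5, had 150, 142 and 129 and then 88.6, 83.8 and 64.7 (-0.83 ± 0.17). The ranges did not overlap in these 3 genes. RPL35A was at -0.78 ± 0.13 and RPL14 at -0.73 ± 0.09 in the same comparison. On their protein-coding rows RPL5 at -0.80, RPL11 at -0.59 and RPL35A at -0.25 were not called with DAC. Without DAC library 6 the count of members that fell was 13.

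With ATRA alone 3 members fell, RPSA, RPS24 and RPL14, and 0 rose, where 1.87% of all rows fell and 5.11% rose. At an unadjusted p under 0.05, 14 members were lower and 0 higher, against 9.23% and 13.3% of all rows. edgeR called 4 lower and DESeq2 3. The median was -0.23 over the members and 0.00 over all rows, and 24 members had all ATRA libraries below all untreated ones, against 11.7% of all rows. RPSA, the laminin receptor precursor that is also a small subunit protein, had 184, 147 and 187 normalized reads untreated and 97.2, 109 and 123 with ATRA (-0.65 ± 0.15, limma adjusted p = 0.00425). RPL14 had 2176, 2173 and 2210 untreated and 1656, 1578 and 1629 with ATRA (-0.43 ± 0.09, limma adjusted p = 0.00239). The change of RPS24 was -0.60 ± 0.15 (limma adjusted p = 0.00981) and lost its call under 15 of 25 alternatives, standing at -0.18 on its protein-coding row. RPSA lost its call in 6 of 25, besides the reversal given below, and RPL14 in 4 of 25. Without ATRA library 9, which had the highest retained-intron share, the members' median was -0.17 and 4 members fell. Leaving out 1 library moved the count from 3 to between 0 and 4, with 0 without untreated library 1, untreated library 3 or ATRA library 8, and 1 without untreated library 2 or ATRA library 7.

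**Figure D3:**
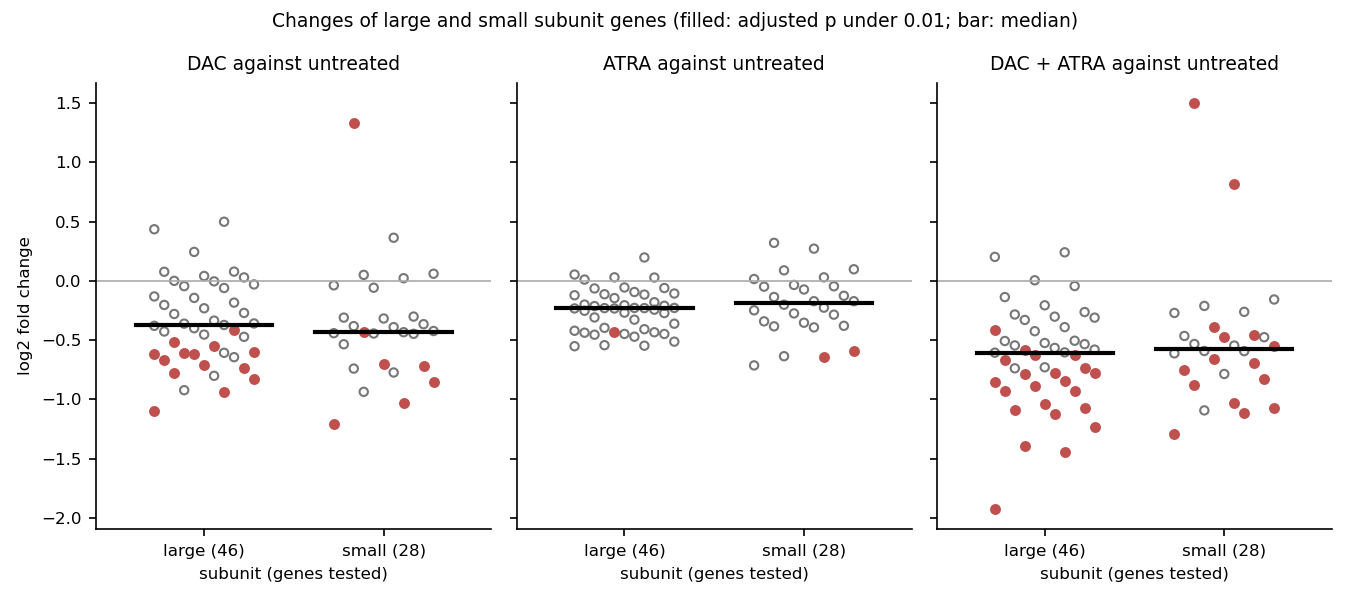
Log2 fold change of each tested ribosomal protein gene against untreated cells, by subunit and treatment (filled points, limma adjusted p under 0.01; bars, medians). With DAC + ATRA the medians are -0.60 for the 46 large and -0.57 for the 28 small subunit genes, and with ATRA most points are open.

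Between DAC + ATRA and DAC 2 members fell and 0 rose (3.59% of all rows fell and 5.18% rose), with 20 lower and 1 higher at an unadjusted p under 0.05 (13% and 12.5% of all rows). These were RPL3, which lies near the peptidyl transferase centre, and RPL12. RPL3 had 63.8, 58.5 and 75.7 normalized reads with DAC and 38.9, 41.1 and 34.6 with both (-0.77 ± 0.19, limma adjusted p = 0.00623), and RPL12 changed by -0.63 ± 0.15 (limma adjusted p = 0.00371). Leaving out 1 library moved the count between 0 and 3, and it was 0 without DAC library 4 or DAC + ATRA library 10 and 1 without DAC library 5 or DAC + ATRA library 11 or 12. RPL3 lost its call in 8 of 24 alternatives and RPL12 in 6 of 24, and without DAC + ATRA library 12 neither was called. Both were counted mostly in introns, and neither had a protein-coding row that could be tested. DESeq2 called 1 member and edgeR 2.

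Between DAC + ATRA and ATRA 20 members fell and 1 rose (10.2% of all rows fell and 19.1% rose). The lowest were RPL8 at -1.69 ± 0.44, RPL5 at -0.93 ± 0.16 and RPL35A at -0.88 ± 0.13. The call of RPL8 was lost in 5 of 23 alternatives, among them DESeq2 (-1.52) and the fit without DAC + ATRA library 12 (-1.01), and with the rows of RPL8 summed the value was -0.77. On protein-coding rows RPL5 at -0.49 and RPL35A at -0.21 were not called. A difference of the combination from the sum of both single effects on the log2 scale (the interaction) was called in no member: 0 were lower and 0 higher in limma, edgeR and DESeq2 (0.986% and 0.527% of all rows in limma), with 2 lower and 2 higher at an unadjusted p under 0.05 (8.8% and 5.59% of all rows). A missed threshold does not show that the effects add up. The median interaction was 0.01 over the members.

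Over the 4 groups, the mean was lowest with DAC + ATRA in 63 of the 74 members and highest in untreated cells in 55, where 28.2% and 29.7% of all rows had these positions. The order untreated, ATRA, DAC, DAC + ATRA from high to low was found in 46 members and in 13.9% of all rows. Neighbours in this order often overlapped: ATRA and untreated libraries overlapped in 50 of 74 members and in 75% of all rows, and DAC and DAC + ATRA libraries in 55 members and in 69.5% of all rows.

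The subunits are set side by side, where the shares of all rows that fell were 1.87% for ATRA, 11.3% for DAC and 16.1% for the combination. With DAC 14 of 46 large and 6 of 28 small subunit genes fell (medians -0.38 and -0.43), with ATRA 1 and 2 (-0.23 and -0.19), and with DAC + ATRA 22 and 13 (-0.60 and -0.57). The difference of the medians within a library, large minus small, lay between -0.12 and 0.12 on the log2 scale with a pooled SD of 0.05 between replicates. It was -0.12, -0.08 and -0.07 in the DAC + ATRA libraries, and the 0.12 was that of DAC library 5. Between DAC + ATRA and DAC 2 large and 0 small subunit genes fell (medians -0.26 and -0.135), where 3.59% of all rows fell. With protein-coding transcripts only, the gap between these medians was smaller, as given below. Summed normalized reads of the large over the small subunit genes gave 2.25 ± 0.0174 untreated, 2.08 ± 0.167 with DAC, 2.05 ± 0.105 with ATRA and 1.96 ± 0.0573 with both. Without the 4 genes with a mean over 1000 it was 1.86 ± 0.0648 untreated, 2.05 ± 0.128 with DAC, 1.86 ± 0.131 with ATRA and 1.85 ± 0.0384 with both, so that the mean with DAC lay above and no longer below the untreated one. These 4 genes were RPS19, RPL37, RPL22 and RPL14.

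The most normalized reads, with no account of the length counted, fell on RPS19, RPL37, RPL22, RPL14 and RPL23, all counted in exons of the main mRNA except RPL14, whose 11 bases of its own in GENCODE release 44 lie outside that mRNA and are few for its reads, so that its placement is uncertain. RPS19, a small subunit protein mutated in Diamond-Blackfan anaemia, had 2757, 2942 and 2695 normalized reads untreated, 2595, 1968 and 2286 with DAC, 3112, 3180 and 2350 with ATRA and 2095, 2206 and 2119 with both (-0.39 ± 0.11, limma adjusted p = 0.00578). RPL37 had 2840, 2848 and 2849 untreated and 1698, 1839 and 1838 with both (-0.67 ± 0.09, limma adjusted p = 8.91e-07), and RPL22, which also binds the EBER RNA of Epstein-Barr virus, had 2550, 2576 and 2507 and then 1413, 1453 and 1577 (-0.78 ± 0.11, limma adjusted p = 9.56e-07). Untreated and DAC + ATRA libraries did not overlap in these 3 genes. RPL14 went to 1089, 1168 and 1178 (-0.93 ± 0.09) and RPL23 from 797, 695 and 651 to 514, 527 and 559 (-0.42 ± 0.13). Per kilobase of counted bases, among members with at least 50 such bases, which leaves out RPL14 with 11, RPS19 led with 1674 normalized reads, followed by RPL22 with 1270, RPL23A with 958 and RPL10 with 912, while RPL37 had 339.

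Among the 29 members with a mean of at least 100 normalized reads 25 fell with DAC + ATRA and 18 with DAC, where 22.7% and 15.7% of all rows at that level fell. All 29 had a negative log2 fold change with DAC + ATRA, with a median of -0.78. Among the other 45 tested members 10 fell and 2 rose with DAC + ATRA, at a median of -0.55, where 13.7% of all rows at that level fell and 22.9% rose.

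**Figure D4:**
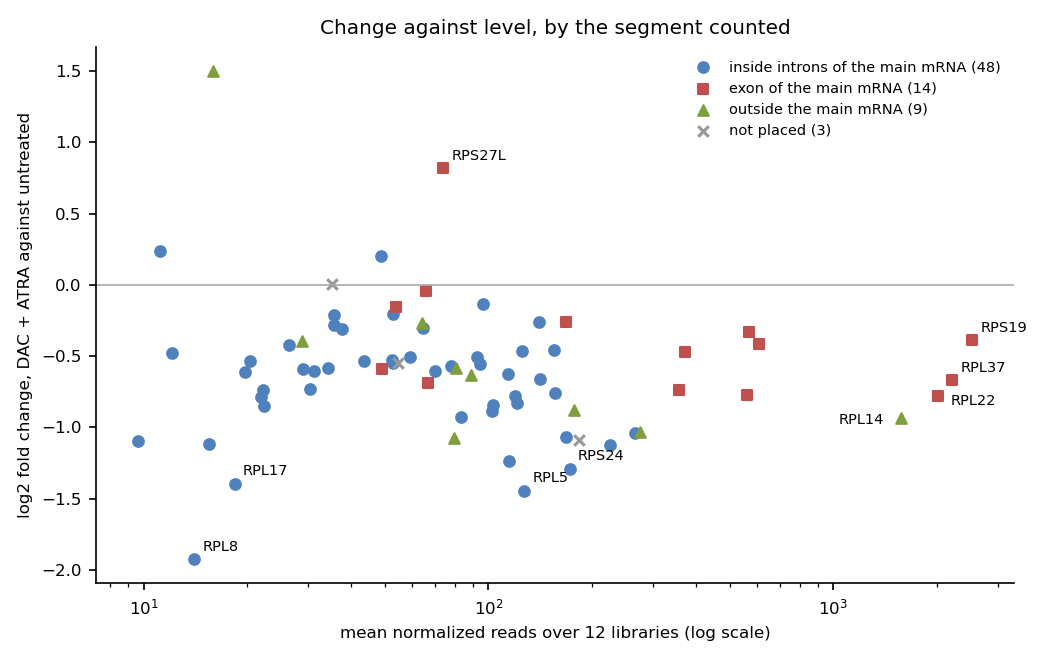
Log2 fold change with DAC + ATRA against the mean level (log scale) of the 74 tested genes, by where the counted bases lie (circles, introns of the main mRNA; squares, its exons; triangles, outside it; crosses, not placed). All genes over 100 lie below 0, and RPS27L is a called gene above it.

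The members were also divided by the segment counted. With DAC + ATRA, where 16.1% of all rows fell and 25.5% rose, 20 of 48 genes counted in introns fell (median -0.60), 8 of 14 counted in exons fell and 1 rose (-0.45), and 6 of 9 counted outside the main mRNA fell and 1 rose (-0.63). Of the 30 tested retained-intron rows among the members 14 fell with DAC + ATRA and 7 with DAC, against 18.1% and 14.9% of retained-intron rows of all genes. In 32 genes a retained-intron and a protein-coding row could be compared. With DAC + ATRA the medians were -0.65 and -0.56, with DAC -0.46 and -0.33 and with ATRA -0.28 and -0.12. When protein-coding transcripts alone were kept, 21 of 53 members fell with DAC + ATRA and 13 with DAC, against 14.2% and 8.70% of all such rows.

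Single genes depended on which row stood for them. On its protein-coding row RPL5 changed by -0.90 with DAC + ATRA and kept its call, and RPS24 by -1.16 and kept it. RPSA changed direction: with ATRA its protein-coding row stood at 0.09, not called, against -0.65 for the retained-intron row. Ribosomal protein genes also have many processed pseudogenes, and how reads shared with them were treated is not given in the sources used here.

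Functional groups of the ribosome are small, and their counts with DAC + ATRA stand beside 16.1% of all rows that fell. In the P stalk, which recruits elongation factors, RPLP1 and RPLP0 fell (RPLP0 -0.62 ± 0.15, from 152, 146 and 134 to 95.8, 83.2 and 100.1 normalized reads) and RPLP2 stood at -0.61 ± 0.20 (limma adjusted p = 0.0131). The reads of both genes whose proteins join the 5S rRNA fell, RPL11 by 0.84 and RPL5 by 1.44 on the log2 scale, both counted in introns. Of 10 genes mutated in Diamond-Blackfan anaemia 9 were tested and 6 fell, namely RPL5, RPS24, RPL35A, RPL11, RPS26 (-0.55 ± 0.16) and RPS19. RPS7, RPS10 and RPL26 stood at -0.26, -0.21 and -0.58 without a call. Of 7 genes whose proteins line the exit tunnel RPL17, RPL23A (-0.74 ± 0.13) and RPL31 (-0.58 ± 0.18) fell, and RPL19 stood at 0.20 ± 0.23. RPS27A, which encodes a fusion of ubiquitin with a small subunit protein, stood at -0.59 ± 0.25 (limma adjusted p = 0.0498).

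Most paralogs were near 0 reads in U937. RPL7L1 had 46.4 to 70.8 normalized reads untreated and 43.3 to 55.8 with DAC + ATRA, and its log2 fold change of -0.21 ± 0.20 was not called, like that of RPL7 at -0.39 ± 0.27. RPS4X, whose paralogs RPS4Y1 and RPS4Y2 were listed at 0, fell by 0.69 on the log2 scale. RPL3L, the striated-muscle paralog of RPL3, had 0, 0.91 and 0 normalized reads in untreated and in ATRA libraries, 7.57, 8.77 and 6.97 with DAC and 7.23, 10.5 and 7.41 with both. All 6 libraries that received DAC were above the other 6. The gene was under the filter and is given without a fold.

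Other genes of the pathway are given beside the shares of all rows, of which 16.1% fell and 25.5% rose with DAC + ATRA. Of 52 ribosome biogenesis genes 39 were tested with DAC + ATRA, 17 fell and 1 rose (median -0.40). The lowest were DKC1, the pseudouridine synthase of H/ACA particles (-2.06 ± 0.27), and GNL3, a nucleolar GTPase (-1.64 ± 0.36), and the one that rose was NOP2, an rRNA methyltransferase (1.39 ± 0.38). Of 18 other genes with TOP mRNAs 14 were tested and 8 fell (median -0.82), led by NAP1L1 (-1.42 ± 0.32) and EIF3H (-1.10 ± 0.15). Of 77 mitochondrial ribosomal protein genes, which are encoded in the nucleus, 58 were tested, 20 fell and 4 rose (median -0.39), with MRPS27 at -1.84 ± 0.48 and MRPL11 at -1.50 ± 0.40 lowest and MRPL20 at 1.26 ± 0.20 and MRPS6 at 1.05 ± 0.31 highest. With DAC alone 6, 6 and 17 genes of these lists fell and 0, 1 and 3 rose, where 11.3% of all rows fell and 22.2% rose. With ATRA alone 2, 1 and 2 fell and 0 rose, where 1.87% of all rows fell and 5.11% rose.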

How the data were processed

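Total RNA of U937 cells was depleted of rRNA and sequenced as stranded paired-end libraries. Per the labels and methods, reads were checked with FastQC, STAR did the alignment (hg38) and HTSeq the counting, and the authors used DESeq2; versions and the annotation release are not given in the sources used here. The deposited table holds a signal per transcript, read counts divided by size factors. Whole reads were recovered from its steps: 100% of values lay within 0.01 of a whole read in every library, and 3 reads equalled 2.50 to 3.71 normalized reads. The column headers name the group and not the replicate, so libraries are called by column number.

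Rows with at least 10 normalized reads in at least 3 libraries (19373) were tested on log2(normalized reads + 1), a scale that understates changes of low genes, with limma 3.58.1 (trend, robust) in R 4.3.3 over all 12 libraries, with Benjamini-Hochberg adjustment over all rows within a comparison and a threshold of 0.01. edgeR 4.0.16 and DESeq2 1.42.0 on the recovered reads, other scalings, filters and transcripts, and each library left out were alternatives. Simulated data were also run through limma, edgeR and DESeq2, with an outcome that is not given here and on which no result rests. No pair of replicates agreed within sampling noise (chi-square per degree of freedom 2.21 to 9.52). Transcripts were placed with GENCODE release 44, which matched 174768 rows. Members and lists were chosen with earlier results of these data known. Named genes were the 8 lowest and 8 highest called members without overlap for each comparison with untreated cells, 3 for the others, the 5 with the highest mean, listed functional groups and, of other lists, the 2 lowest and 2 highest called. No library was left out. Some genes that these rules name are not reported here.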

Additional observations from a re-analysis of the deposited data

How the results depend on the processing

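Counts of members that fell were 20 with DAC, 3 with ATRA, 35 with DAC + ATRA, and 2 and 20 for DAC + ATRA against DAC and against ATRA. With protein-coding transcripts only they were 13, 1, 21, 0 and 11, and with a threshold of 0.05 they were 32, 7, 52, 7 and 31. Scaling by library size without mitochondrial transcripts, under which the median of all rows with DAC + ATRA is -0.20 in place of 0.05, gave 33, 7, 53, 4 and 30, and scaling by library size gave 5 with ATRA. Without a filter the counts with ATRA and for DAC + ATRA against DAC were 1 and 0, with only the groups compared the first was 1, and the second was 4 with the rows of a symbol summed and 1 with DESeq2. edgeR without DAC library 6 gave 1 for DAC + ATRA against DAC. That alternative was added after seeing the data, because the library's step of 0.996 normalized reads per read is close to 1. Members that rose were 1, 2 and 1 with DAC, DAC + ATRA and DAC + ATRA against ATRA. These became 0, 1 and 0 with at least 10 reads in every library and likewise with the rows of a symbol summed. They became 2, 3 and 2 without a filter or with protein-coding transcripts, 2 for the last at 0.05, and 1 for the second without mitochondrial transcripts.

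The members' median minus that of all rows was -0.45, -0.65 and -0.40 with DAC, DAC + ATRA and DAC + ATRA against ATRA. With protein-coding transcripts only it was -0.56, -0.78 and -0.52, and with 10 reads in every library -0.57 with DAC + ATRA. Large minus small medians with protein-coding transcripts only were -0.13 (ATRA), 0.0292 (DAC + ATRA), -0.0448 (against DAC), 0.0883 (against ATRA) and 0.13 (interaction), and -0.0849 with DAC + ATRA when rows were summed. RPSA reversed with ATRA on its protein-coding row (0.0895). The causes were not tested.

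Leaving out 1 library gave 13 to 22 members that fell with DAC, 0 to 4 with ATRA, 26 to 39 with DAC + ATRA, 0 to 3 against DAC and 15 to 22 against ATRA, and 0 for the interaction. The members' median minus that of all rows ran from -0.48 to -0.40, -0.27 to -0.17, -0.68 to -0.60, -0.22 to -0.16, -0.46 to -0.37 and -0.0313 to 0.0727 in that order. Large minus small ran from -0.0516 to 0.075, -0.08 to -0.01, -0.13 to -0.0329, -0.23 to -0.0845, -0.10 to -0.0311 and -0.14 to -0.0014. No paired analysis was possible because the columns carry no replicate numbers. At this depth genes under about 10 reads could not be compared.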

Other observations

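Genes of the ribosome outside the rule behaved differently from one another. RPL10L, a retrogene paralog of RPL10 known from testis, was at 0 in all untreated and ATRA libraries, and had 19.5, 26.3 and 14.9 normalized reads with DAC and 15.4, 28.4 and 24.7 with DAC + ATRA. RPL36AL, a retrogene copy of RPL36A, had 5707 to 5954 untreated and 5436 to 5895 with both agents, whereas RPL36A itself fell. FAU, a ubiquitin-like fusion with a small subunit protein, was listed at 0 in every library.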
